A study of Mus musculus with 4 samples.

Results

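The 40 genes described here encode the machinery that copies chromosomal DNA, together with enzymes and regulators that cells need to enter and pass S phase. The list is one of symbols, set without a cutoff on any measured value, and all 40 occur once in the deposited table, among 22565 protein-coding genes. The table covers alveolar epithelial type II (AT2) cells, which make and secrete lung surfactant, sorted by flow cytometry from untreated 6-month-old mice. There were 2 libraries labelled KO and 2 labelled WT. The genotype field of KO replicate 1 reads Fbxo45 knockout and that of KO replicate 2 reads Fbxo46 knockout, whereas the growth protocol names only a conditional Fbxo45 knockout (Fbxo45-cKO) beside WT. The sources used here do not name the Cre driver, the deleted part of the gene, the strain or any pooling of animals. FBXO45 selects the proteins that its ubiquitin ligase marks.

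Replication begins when the origin recognition complex, CDC6 and CDT1 load the ring-shaped MCM helicase onto DNA. CDC45 and the GINS complex then join the ring to form the active helicase, and polymerases held by the sliding clamp PCNA copy both strands. Many of these genes are transcribed under E2F factors late in G1, so their mRNAs are abundant in dividing cells, and AT2 cells of an uninjured adult lung are known to divide rarely.

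Depth ranged from 4167114 fragments in WT replicate 1 to 9507431 in KO replicate 1, so single low genes rest on few fragments. A count of 0 allows up to 0.425 fragments per 1000000 (CPM) in KO replicate 2 and up to 0.72 CPM in WT replicate 1, as 3 fragments of the total. Intervals and floors given here cover counting error only. Fbxo45 had values of 4.41 and 7.58 FPKM (fragments per kilobase of transcript, scaled to depth) in KO replicates 1 and 2, against 4.6 and 5.91 FPKM in WT. Fbxo46 had 3.82 and 4.8 FPKM in KO, against 4.13 and 3.79 FPKM in WT, so neither gene separated the groups. Values per gene do not resolve a deleted exon, and directions below are those of libraries labelled KO. The 11 AT2 markers, surfactant genes among them, took 157863 and 170746 CPM in KO replicates 1 and 2, against 187386 and 182947 CPM in WT. Sftpc, which encodes surfactant protein C, made up 4.78% and 6.18% of fragments in KO, against 7.6% and 7.18% in WT. The summed markers of the sorted cell type were thus lower in both KO-labelled libraries, but gene by gene they went both ways. In the group test described below, 4 of the 11 had a log2 difference above 0 and 7 below, with a median of -0.07. T and NK cell markers had no fragment in any library. The 7 fast skeletal muscle markers summed to 1058 CPM in KO replicate 1 and 6.23 CPM in KO replicate 2, against 0.96 and 6.83 CPM in WT. Macrophage markers (with Marco and Itgax at 0 throughout) summed to 19.8 and 8.07 CPM in the KO-labelled libraries against 10.1 and 13.3 CPM in WT, and endothelial markers to 8.62 and 2.69 CPM in KO against 5.52 and 2.07 CPM in WT. B cell markers summed to 32.3 and 18.5 CPM in KO against 23.5 and 17.3 CPM in WT, and fibroblast and smooth muscle markers to 205 and 171 CPM in KO against 208 and 71.6 CPM in WT. Alveolar type I (AT1) markers summed to 1716 and 1042 CPM in KO replicates 1 and 2, against 1324 and 1141 CPM in WT. Club cell markers summed to 665 and 406 CPM in KO against 651 and 440 CPM in WT. By these sums, KO replicate 1 held the most muscle, macrophage, endothelial, B cell, AT1 and club marker RNA. Single markers again went both ways between groups. In the group test, 2 of the 8 AT1 markers had a log2 difference above 0 and 6 below, with a median of -0.39. Of the 5 club markers, 2 were above 0 and 3 below, with a median of -0.21. In sorted bulk RNA fewer cells of a type cannot be told apart from less RNA per cell.

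Promoter sequence shows what a subset of the MCM genes shares. The E2F-type words TTTCGCGC and TTTGGCGC were searched on both strands in the RefSeq windows that run from 250 bases before to 50 bases after a gene's start. Of the 33 list genes with a window, 11 (33.3%) hold a word, against 251 of 27025 genes in the whole table of windows (0.929%). They are Mcm3, Mcm5, Mcm6, Mcm7, Orc1, Cdt1, Pola1, Rfc3, Lig1, Clspn and Uhrf1. Printed here are the windows that hold a word in 4 MCM helicase genes, which code for subunits of a single ring and yet stood at unlike levels. Capitals mark the matched letters, and in Mcm5 and Mcm6 matches share bases.
Mcm3 (GRCm38.p6, chr1:20820263-20820562, minus strand): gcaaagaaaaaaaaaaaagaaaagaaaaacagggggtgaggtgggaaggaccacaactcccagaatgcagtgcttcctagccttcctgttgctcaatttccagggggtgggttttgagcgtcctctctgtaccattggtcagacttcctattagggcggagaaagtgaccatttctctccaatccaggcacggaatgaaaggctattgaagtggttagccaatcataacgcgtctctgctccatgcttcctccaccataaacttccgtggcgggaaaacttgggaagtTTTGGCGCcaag
Mcm5 (GRCm38.p6, chr8:75109259-75109558, plus strand): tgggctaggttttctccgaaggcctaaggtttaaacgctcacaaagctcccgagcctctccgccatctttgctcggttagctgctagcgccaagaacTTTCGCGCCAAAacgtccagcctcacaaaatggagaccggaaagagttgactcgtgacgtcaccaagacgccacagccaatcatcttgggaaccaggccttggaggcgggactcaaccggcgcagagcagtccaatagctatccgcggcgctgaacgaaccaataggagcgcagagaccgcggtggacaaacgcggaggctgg
Mcm6 (GRCm38.p6, chr1:128359656-128359955, minus strand): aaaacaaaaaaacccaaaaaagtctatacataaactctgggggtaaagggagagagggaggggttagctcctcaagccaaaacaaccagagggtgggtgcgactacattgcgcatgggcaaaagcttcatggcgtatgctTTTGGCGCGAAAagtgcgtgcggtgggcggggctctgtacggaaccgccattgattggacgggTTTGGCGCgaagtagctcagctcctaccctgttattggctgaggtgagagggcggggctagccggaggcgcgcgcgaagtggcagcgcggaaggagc
Mcm7 (GRCm38.p6, chr5:138171834-138172133, minus strand): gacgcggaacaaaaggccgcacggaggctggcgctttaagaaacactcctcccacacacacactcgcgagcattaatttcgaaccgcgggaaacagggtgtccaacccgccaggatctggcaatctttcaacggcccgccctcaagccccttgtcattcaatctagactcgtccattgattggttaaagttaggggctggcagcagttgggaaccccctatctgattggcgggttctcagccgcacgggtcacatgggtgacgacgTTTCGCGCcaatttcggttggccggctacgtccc
Counted from the gene's start, the first match begins at position 39 in Mcm3, 17 in Mcm7, -153 in Mcm5 and -110 in Mcm6. The Mcm2 window and a second Mcm7 window hold neither word, which says only that these letters are not there. A match of letters is not evidence of binding. Ccne2, Gins1, Gins2, Gins4, Mcm4, Pole and Tipin had no window.

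As a set, the replication genes were expressed at low to moderate levels in both groups, and their sum did not separate KO-labelled from WT cells. Summed over the 40, KO replicate 1 had 371 CPM, with an exact binomial 95% interval of 359 to 384, while KO replicate 2 stood at 324 CPM (interval 311 to 337). WT replicate 1 had 351 CPM (interval 333 to 369) and WT replicate 2 had 339 CPM (interval 326 to 351). The means were 348 ± 33.7 CPM in the KO-labelled libraries and 345 ± 8.45 CPM in WT (SD, n = 2 each), a log2 ratio of 0.01. KO replicate 1 was the highest and KO replicate 2 the lowest of the 4, so the groups overlapped. The exact two-sided permutation test gave p = 1, where 2 libraries against 2 cannot go below 0.333.

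**Figure D1:**
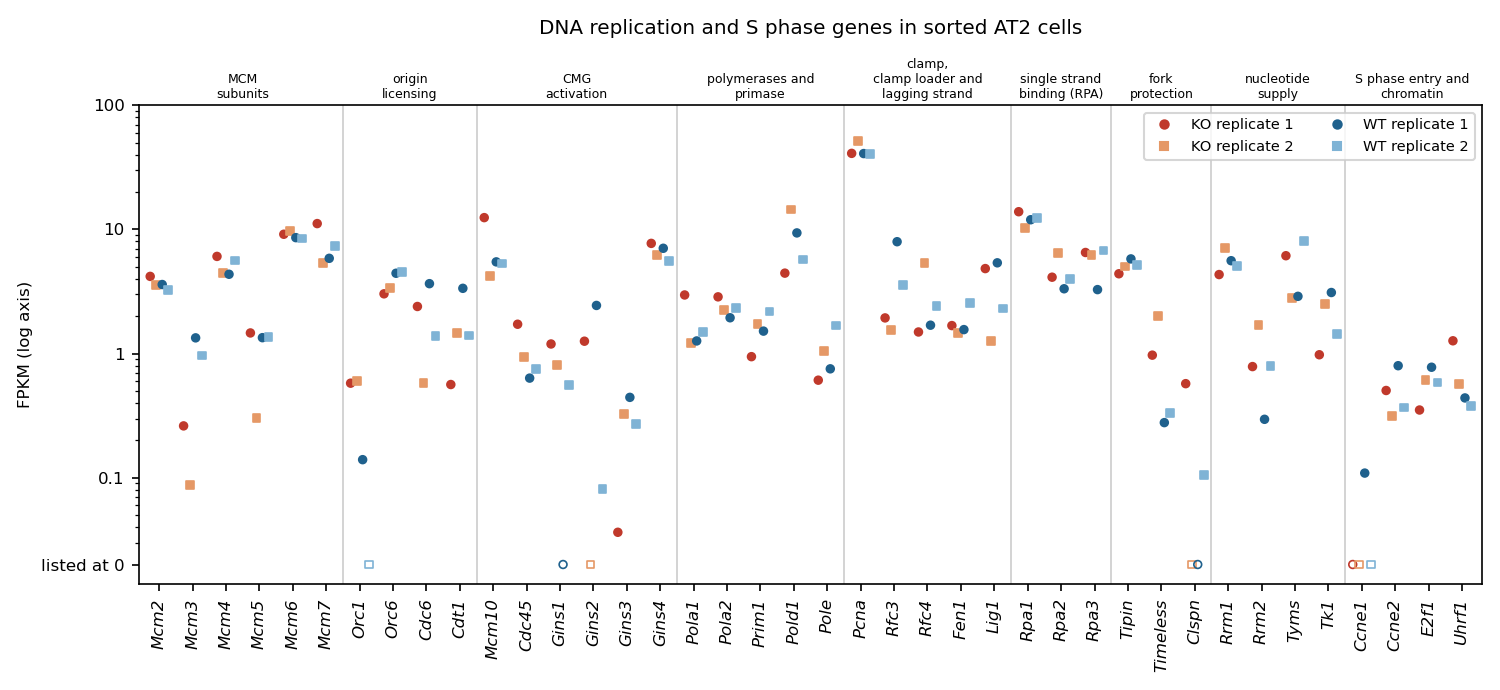
FPKM (log axis) of the 40 replication genes in each library, KO-labelled on the left of each gene and WT on the right, grouped by role, with open symbols for values listed at 0. Pcna sits highest at 40.8 to 51.8 FPKM, and most other genes lie between 0.1 and 10 FPKM with groups intermixed.

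By mean FPKM over the 4 libraries, which is scaled to transcript length and so allows genes to be compared, Pcna stood at 43.6 and Rpa1 at 12.2. Those were the 2 genes at 10 FPKM or more, 28 reached 1 FPKM, and the median over the 40 was 2.01 FPKM. The lowest was Ccne1, with 1 fragment in WT replicate 1 and none elsewhere. Ranked among all genes of the table by mean FPKM, the median replication gene was at the 55.7th percentile. That ranking includes genes without a fragment, as 15326 of the 22565 had any. Ccne1, with its 1 fragment, already stood at the 34.5th percentile. Fragments of all 40 were found in at least 1 library, and 35 had fragments in all 4.

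No replication gene passed the test between groups. The test was edgeR's quasi-likelihood test on fragment counts, called at a Benjamini-Hochberg adjusted p under 0.05 over all 11705 genes tested. It called 0% of genes higher and 0% lower, with 372 genes (3.18%) at an unadjusted p under 0.05. Of the 40, 33 passed edgeR's filter on low counts, 17 with a log2 difference above 0 and 16 below, beside 51.9% above 0 over all genes. Every one of the 33 had an adjusted p of 0.999, and 1 of them, Mcm3, had an unadjusted p under 0.05. The median log2 difference was 0.05 over the 33 and 0.02 over all genes tested, and the quartiles of the list were -0.43 and 0.22 against -0.21 and 0.22 over all genes. With no filter all 40 could be fitted, 20 higher and 20 lower, with a median of 0.02. DESeq2 called 7 of 15326 genes (0.0457%) and none of the 40, and limma on log2(FPKM + 1) called 0 of 11055. Leaving out KO replicate 2 moved the list median to 0.17, beside 0.01 over all genes. Leaving out KO replicate 1 moved it to -0.17, beside -0.01 over all genes. In the CPM values, 5 of the 33 had both KO-labelled values above both WT values and 6 had both below. Over all tested genes these shares were 16.5% above and 16.9% below, so the counts are close to the background. A p that misses the threshold does not show equal levels. Data were simulated with 1 common spread (dispersion 0.0718) for every gene and both groups, and 11749 genes were tested. There, a 2-fold change was recovered in 6.15% of altered genes, a 4-fold change in 76.5% and an 8-fold change in 100%. That setting leaves out unequal spread between genes and within the KO-labelled pair, and altered genes were drawn from all tested genes. These shares therefore do not give the recovery for the replication genes.

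**Figure D2:**
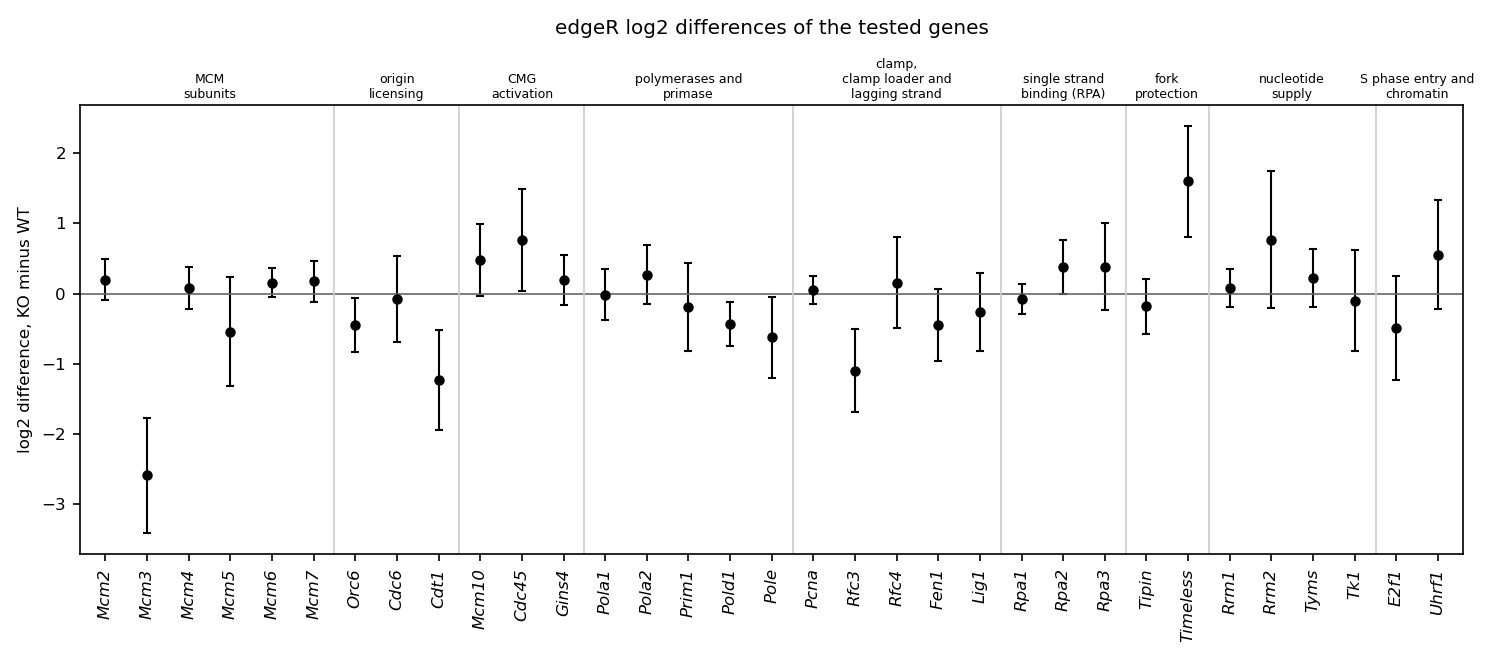
edgeR log2 difference, KO-labelled minus WT, of the 33 tested replication genes by role, with bars of 1 approximate standard error. Among these 33, Mcm3 is lowest at -2.59 and Timeless highest at 1.60, and most others lie within 0.6 of 0.

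The MCM2 to MCM7 proteins form a hexameric ring with 1 copy of each, yet their mRNAs stood at unlike levels. Mean FPKM over the libraries was 8.98 for Mcm6, 7.44 for Mcm7, 5.12 for Mcm4, 3.66 for Mcm2, 1.12 for Mcm5 and 0.66 for Mcm3. Library ranges of Mcm6 and Mcm7, of Mcm7 and Mcm4, and of Mcm5 and Mcm3 overlapped, whereas those of Mcm4 and Mcm2 and of Mcm2 and Mcm5 did not. Mcm3 had 9 and 2 fragments in KO replicates 1 and 2 and 19 and 27 in WT replicates 1 and 2. In CPM that is 0.947 (exact 95% interval 0.433 to 1.8) and 0.283 (0.0343 to 1.02) in the KO-labelled libraries, against 4.56 (2.75 to 7.12) and 3.29 (2.17 to 4.79) in WT. Both KO-labelled values lay below both WT values, and none of the KO-labelled intervals reached a WT interval. The log2 difference was -2.59 (SE 0.824, edgeR unadjusted p = 0.019, adjusted p = 0.999), from means of 0.615 ± 0.469 CPM in the KO-labelled libraries and 3.93 ± 0.896 CPM in WT (SD, n = 2 each). Mcm3 passed the count filter through the WT libraries alone, so a lower value in the KO-labelled libraries was built into its being tested. It made up 0.81% and 0.369% of the summed Mcm2 to Mcm7 FPKM in KO replicates 1 and 2, against 5.34% and 3.57% in WT. No other gene of the table shares its locus (ENSMUSG00000041859, chromosome 1, 20802968 to 20820312, minus strand, GRCm38), and none of its sequence recurs in other transcripts of the annotation.

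In each other MCM subunit at least 1 KO-labelled library reached or passed a WT library. Mcm6 was at 9.15 and 9.73 FPKM in KO replicates 1 and 2, against 8.59 and 8.46 FPKM in WT, slightly higher in both, with a log2 difference of 0.15 (SE 0.208). Mcm2 was at 4.19 and 3.59 FPKM in KO against 3.6 and 3.25 FPKM in WT, and Mcm4 at 6.07 and 4.43 FPKM in KO against 4.36 and 5.63 FPKM in WT, and both overlapped between groups. Mcm7 was at 11.2 and 5.36 FPKM in KO replicates 1 and 2, against 5.86 and 7.41 FPKM in WT, so a single KO-labelled library stood above WT. Mcm5 divided the KO-labelled libraries: it had 58 fragments (6.1 CPM, exact 95% interval 4.63 to 7.89) in KO replicate 1, whereas KO replicate 2 had 8 (1.13 CPM, interval 0.489 to 2.23), against 5.28 and 5.37 CPM in WT. Its log2 difference was -0.55 (SE 0.777), -2.22 without KO replicate 1 and 0.18 without KO replicate 2, and it passed the filter through WT. The summed MCM subunits stood at 103 and 77.1 CPM in the KO-labelled libraries and at 84.2 and 88.4 CPM in WT, with the 2 KO-labelled libraries on either side of WT. The loci of Mcm2 and Mcm7 hold further genes, and 7.29% of Mcm7 sequence recurs in the gene model Gm5487, so their counts are less certain.

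**Figure D3:**
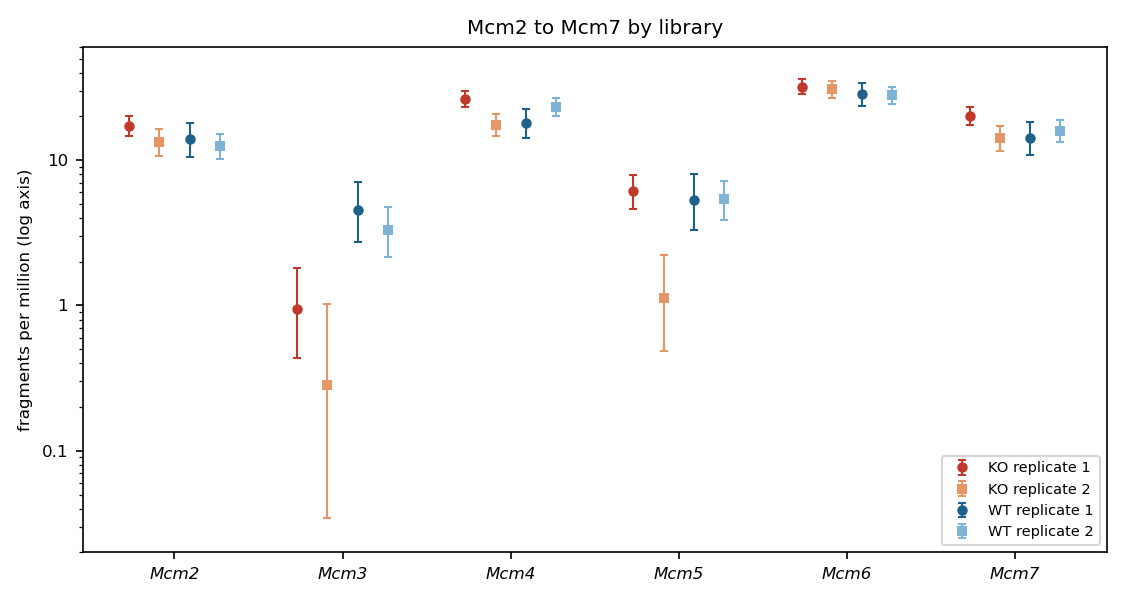
Fragments per 1000000 (CPM, log axis) of Mcm2 to Mcm7 in each library, KO-labelled left and WT right, with exact binomial 95% intervals. Mcm3 lies below 1 in both KO-labelled libraries and above 3 in both WT libraries, Mcm5 is low in KO replicate 2 only, and Mcm6 lies between 27.9 and 32.1 throughout.

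The licensing factors, which mark origins and load the MCM ring, stood on both sides of WT. Orc1, the regulated ATPase subunit of the origin recognition complex, had 10 and 14 fragments in the KO-labelled libraries and 2 and 0 in WT. It had no more than 2 fragments in a WT library, but its low counts kept it out of the test, and with no filter it had an edgeR adjusted p of 0.998 (unadjusted p = 0.126). Pooled over libraries, Orc1 stood at 1.45 CPM (exact 95% interval 0.928 to 2.15) in the KO-labelled libraries and 0.162 CPM (0.0196 to 0.584) in WT. Orc6, another subunit of that complex, was at 3.03 and 3.4 FPKM in KO replicates 1 and 2, against 4.44 and 4.57 FPKM in WT. Both KO-labelled values were the lower ones, with a log2 difference of -0.45 (SE 0.387). Cdt1, which brings MCM rings to origins, was at 1.47 and 3.4 CPM in the KO-labelled libraries and 8.16 and 3.41 CPM in WT. KO replicate 2 and WT replicate 2 were almost equal, and the log2 difference of -1.23 (SE 0.711) became -0.52 without WT replicate 1. Cdt1 lies in a locus bundle with 74 other genes of the table, which makes its count uncertain. Cdc6, the loading ATPase, had 9.47 and 2.97 CPM in the KO-labelled libraries and 7.68 and 5.61 CPM in WT, again with KO replicates on either side of WT.

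Factors that activate the helicase were led by KO replicate 1. Mcm10, which helps open the ring at origins, had 206 and 58 fragments (21.7 and 8.21 CPM) in the KO-labelled libraries and 56 and 68 fragments (13.4 and 8.29 CPM) in WT. KO replicate 1 was above both WT libraries, and KO replicate 2 was close to WT replicate 2 and below WT replicate 1. Its log2 difference was 0.48 (SE 0.513), 1.03 without KO replicate 2 and -0.37 without KO replicate 1. Cdc45, part of the active helicase, was at 3.26 and 1.7 CPM in KO against 1.44 and 1.46 CPM in WT, above in both with a log2 difference of 0.76 (SE 0.728). The GINS genes encode the 4 subunits of a single complex and were uneven. Gins4 was at 7.73 and 6.24 FPKM in KO replicates 1 and 2, against 7.05 and 5.61 FPKM in WT. Gins1 had 14 and 3 fragments in KO against 0 and 5 in WT, Gins2 had 7 and 0 in KO against 5 and 3 in WT, and Gins3 had 1 and 6 in KO against 5 and 6 in WT. Gins1 to Gins3 did not pass the count filter, and with no filter edgeR gave each an adjusted p of 0.998. The summed activation factors stood at 39.4 and 19.7 CPM in the KO-labelled libraries and 27.4 and 19.5 CPM in WT. KO replicate 1 was also the library with the highest summed muscle, macrophage, endothelial, B cell, AT1 and club marker RNA. The part of that RNA in these values was not tested.

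Of the 5 polymerase and primase genes, 4 had a log2 difference below 0 and 1 above, none past the test, and Pold1 alone had both KO-labelled libraries below WT in CPM. Pola1 and Pola2 encode the catalytic and B subunits of the polymerase that starts each strand. In the KO-labelled libraries Pola1 was at 9.68 and 7.36 CPM and in WT at 7.68 and 9.39 CPM, and Pola2 at 8.31 and 5.8 CPM in KO against 5.28 and 6.34 CPM in WT. Prim1, the primase that makes the RNA primer, was at 2.21 and 2.69 CPM in KO against 2.16 and 3.29 CPM in WT, and these 3 genes overlapped between groups. Pold1, the catalytic subunit of the main lagging-strand polymerase, was at 8.2 and 9.2 CPM in the KO-labelled libraries and 11.5 and 11.8 CPM in WT. Both KO-labelled values were lower, with means of 8.7 ± 0.703 CPM in KO and 11.7 ± 0.219 CPM in WT (SD, n = 2 each) and a log2 difference of -0.43 (SE 0.317). In FPKM, Pold1 read 4.45 and 14.5 in the KO-labelled libraries and 9.38 and 5.74 in WT, where limma on log2(FPKM + 1) gave a difference of 0.13, the opposite sign. Pole, the catalytic subunit of the leading-strand polymerase, was at 3.26 and 2.69 CPM in KO against 3.12 and 5.85 CPM in WT, with WT replicate 2 apart from the other 3.

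Such disagreement between FPKM and counts was common among these genes. For a gene counted over a fixed length, CPM divided by FPKM should be nearly the same in every library, and for Mcm2 its highest value was 1.11 times its lowest. This ratio varied by more than 1.5 times in 17 of the 40 genes and by more than 2 times in 11. It ran from 0.64 in KO replicate 2 to 2.06 in WT replicate 2 for Pold1, and from 1.24 in KO replicate 1 to 3.9 in WT replicate 2 for Uhrf1. FPKM and counts then order the libraries differently, and the sign of the group difference depended on the measure for Pold1, Pola1 and Tyms.

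**Figure D4:**
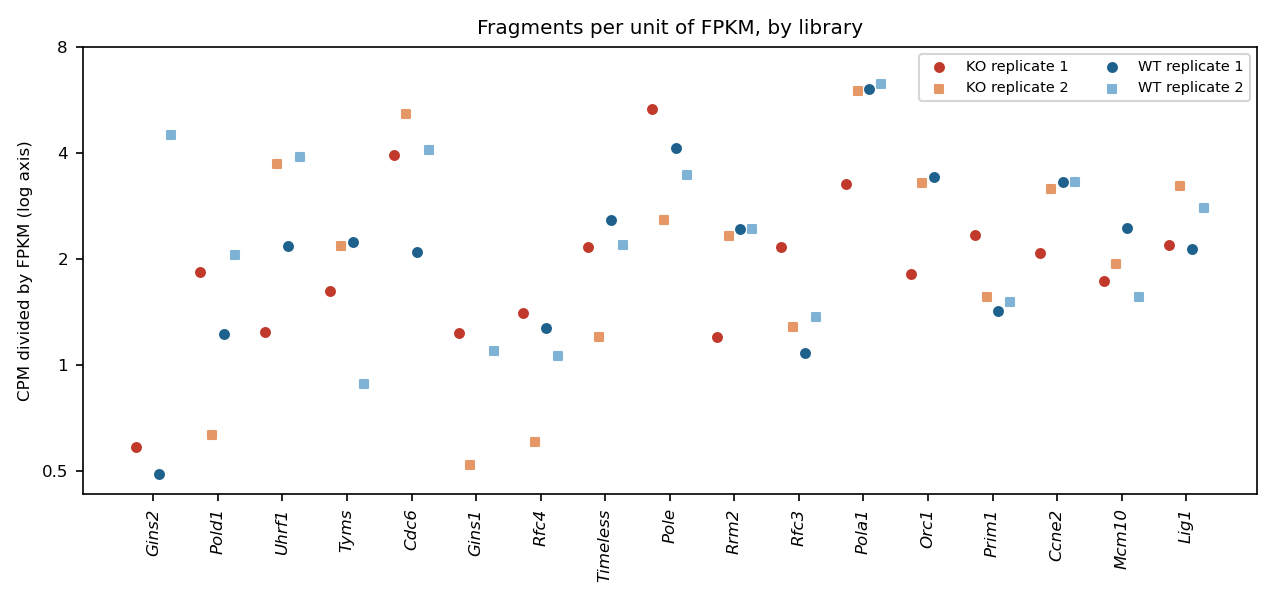
CPM divided by FPKM (log axis) in each library, KO-labelled left and WT right, for the 17 replication genes where this ratio varied by more than 1.5 times. Libraries listed at 0 have no point, a gene with 1 effective length would show its points level, and Gins2 varies most, its highest value being 9.19 times its lowest.

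The clamp, its loader and the lagging-strand enzymes were as a sum alike, at 76.5 and 77.5 CPM in the KO-labelled libraries and 85 and 76.9 CPM in WT. Pcna, the sliding clamp, took most of it with 526 and 459 fragments in KO against 244 and 468 in WT, which is 55.3 and 65 CPM in the KO-labelled libraries and 58.6 and 57.1 CPM in WT. Its log2 difference of 0.05 (SE 0.2) was the most narrowly measured of the list, and 9.86% of its sequence recurs in the pseudogene Pcna-ps2. Rfc3, a small subunit of the clamp loader, stood lower in the KO-labelled libraries at 4.21 and 1.98 CPM, against 8.64 and 4.88 CPM in WT. The log2 difference was -1.10 (SE 0.59), and limma on log2(FPKM + 1) gave -1.23 (unadjusted p = 0.0233, limma adjusted p = 0.948). Counting intervals of KO replicate 1 (3.01 to 5.73) and WT replicate 2 (3.48 to 6.64) overlapped. Rfc4, its partner subunit, was at 2.1 and 3.25 CPM in KO against 2.16 and 2.56 CPM in WT, and did not follow Rfc3. Fen1, the flap nuclease, was at 4.21 and 3.25 CPM in KO against 4.08 and 5.98 CPM in WT. Lig1, which seals the joined fragments, was uneven within both groups, at 10.6 and 4.1 CPM in the KO-labelled libraries and 11.5 and 6.46 CPM in WT.

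RPA coats the single-stranded DNA at forks and in repair, and its 3 subunits were among the better expressed genes. Rpa1 was at 13.9 and 10.3 FPKM in KO replicates 1 and 2, against 12 and 12.4 FPKM in WT, with a log2 difference of -0.08 (SE 0.213). Rpa2 was at 7.89 and 9.76 CPM in KO against 5.76 and 7.56 CPM in WT, higher in both KO-labelled libraries with a log2 difference of 0.38 (SE 0.385). Rpa3 was at 4.63 and 3.4 CPM in KO against 1.92 and 4.02 CPM in WT, overlapping between groups. Summed, the RPA genes stood at 56.2 and 48.7 CPM in the KO-labelled libraries and 49.4 and 52.9 CPM in WT.

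The fork protection genes differed among themselves. TIMELESS and TIPIN act as a pair that travels with the fork, and claspin links it to checkpoint signalling. Timeless had 20 and 17 fragments in the KO-labelled libraries and 3 and 6 in WT, or 2.1 and 2.41 CPM in KO against 0.72 and 0.732 CPM in WT. Both KO-labelled values lay above both WT values, and the exact 95% interval of KO replicate 1 (1.28 to 3.25) overlapped those of WT replicate 1 (0.148 to 2.1) and WT replicate 2 (0.269 to 1.59). The log2 difference was 1.60 (SE 0.79, edgeR unadjusted p = 0.0874, adjusted p = 0.999), the highest of the 33 genes that passed the filter. With no filter, Orc1 at 2.84 and Clspn at 2.33 stood higher, on fewer fragments. Timeless passed the filter through the KO-labelled libraries alone, and it shares its locus bundle with another gene of the table. Tipin stood the other way, at 6.1 and 5.94 CPM in the KO-labelled libraries and 7.2 and 6.46 CPM in WT, with a log2 difference of -0.18 (SE 0.391). Clspn, which encodes claspin, had 15 fragments in KO replicate 1, 0 in KO replicate 2, 0 in WT replicate 1 and 2 in WT replicate 2, so its signal came almost wholly from a single library.

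Enzymes that supply deoxynucleotides were measured with more fragments than the regulators. Rrm1, the large subunit of ribonucleotide reductase, was at 4.33 and 7.08 FPKM in KO replicates 1 and 2, against 5.6 and 5.11 FPKM in WT. Rrm2, its small subunit that is made mainly in S phase, was at 0.786 and 1.7 FPKM in KO against 0.296 and 0.799 FPKM in WT, on 9 and 28 fragments in KO against 3 and 16 in WT. Per length, Rrm2 stood below Rrm1 in each library. KO replicate 2 was the highest for both. Tyms, thymidylate synthase, was at 9.99 and 6.09 CPM in the KO-labelled libraries and 6.48 and 7.19 CPM in WT. Tk1, the cytosolic thymidine kinase, was at 1.68 and 4.1 CPM in KO against 4.08 and 2.2 CPM in WT. All 4 genes overlapped between groups, with log2 differences from -0.10 for Tk1 to 0.77 for Rrm2 (SE 0.974).

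Regulators of S phase entry had the lowest summed FPKM of the 9 roles, at 2.12 and 1.5 in KO and 2.12 and 1.33 in WT. Ccne1, cyclin E1, was at 0 in both KO-labelled libraries and had 1 fragment in WT, so nothing can be said of a difference. Ccne2, cyclin E2, had 10 and 7 fragments in KO against 11 and 10 in WT, or 1.05 and 0.991 CPM in the KO-labelled libraries against 2.64 and 1.22 CPM in WT. E2f1, a founding E2F factor, had 11 and 13 fragments in KO against 10 and 15 in WT, with a log2 difference of -0.49 (SE 0.744). Uhrf1, which recruits maintenance DNA methylation to copied DNA, had 15 and 15 fragments in KO against 4 and 12 in WT, higher in both with a log2 difference of 0.55 (SE 0.776), and 6.04% of its sequence recurs in Gm5648. Uhrf1 passed the filter through the KO-labelled libraries, where it was higher, and E2f1 through WT. Summed, these 4 stood at 3.79 and 4.95 CPM in the KO-labelled libraries and 6.24 and 4.51 CPM in WT.

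**Figure D5:**
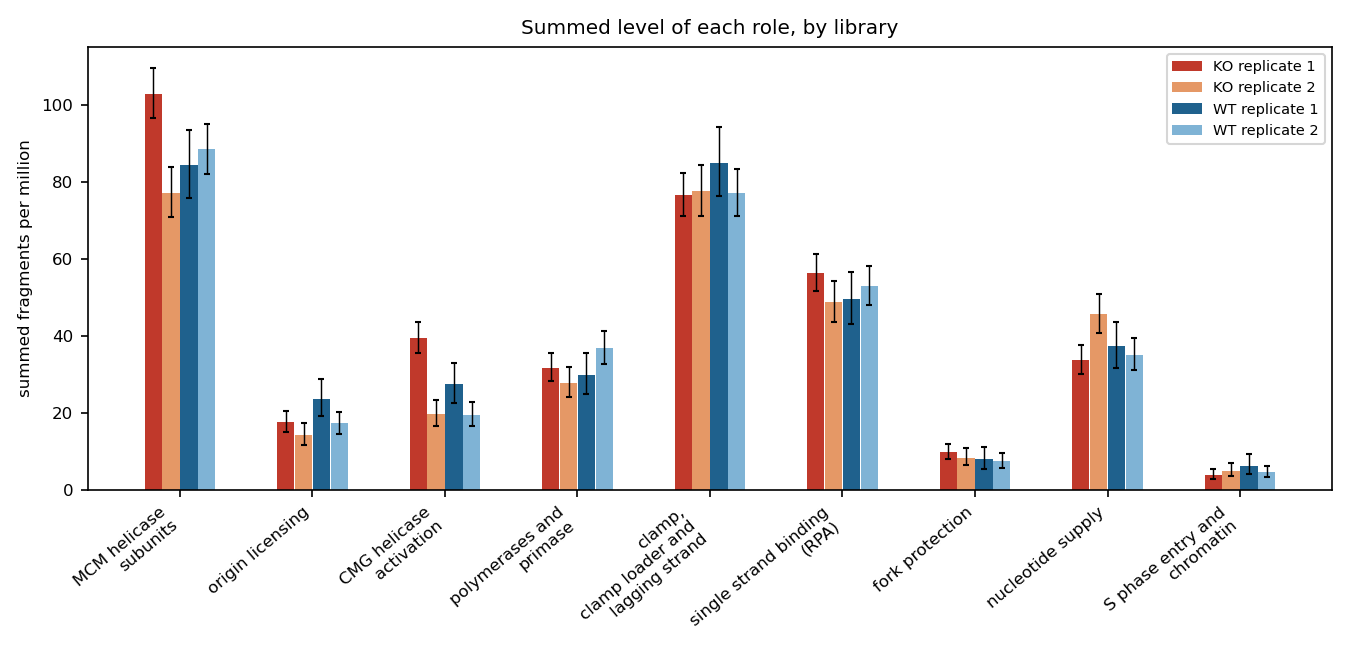
Summed fragments per 1000000 (CPM) of each role in every library, KO-labelled bars left of WT bars, with exact binomial 95% intervals. MCM subunits (77.1 to 103) and the clamp group (76.5 to 85) are the highest roles, and KO replicate 1 stands above the other libraries for helicase activation (39.4).

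Many of these genes were uneven within the KO-labelled pair, as were genes of the table at large. The exact 95% intervals of the 2 KO-labelled libraries did not overlap for 10 of the 40 genes: Mcm4, Mcm5, Mcm7, Cdc6, Mcm10, Lig1 and Clspn were higher in KO replicate 1, and Rrm1, Rrm2 and Tk1 in KO replicate 2. In WT this held for Cdt1 and Lig1, both higher in WT replicate 1. These shares, 25% in the KO-labelled pair and 5% in WT, stood below those over all 15326 genes with a fragment, 41.4% in the KO-labelled pair and 9.49% in WT. The list was not matched to the other genes for fragment number, on which the separation of such intervals depends. WT replicate 1 is the shallowest library and has the widest intervals. Relative to the WT mean, the median tested replication gene stood at 0.18 (log2) in KO replicate 1 and -0.15 in KO replicate 2, while the median of all tested genes was 0.02 in the first of these libraries, KO replicate 1, and -0.004 in KO replicate 2. The KO-labelled libraries also differ in the genotype that their labels name, in depth and in the muscle markers, and the part of each was not tested.

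Beyond the list, 53 further replication genes (other subunits, loaders, E2F factors, nucleotide enzymes) gave 46 tested, 22 higher and 24 lower, 0 called and a median log2 difference of -0.01. Rnaseh2c, a subunit of the enzyme that removes ribonucleotides from DNA, had the smallest unadjusted p: 24 and 31 fragments in the KO-labelled libraries against 41 and 84 in WT, a log2 difference of -1.55 (SE 0.455, edgeR unadjusted p = 0.0133, adjusted p = 0.999). Next came Mtbp, a partner of treslin in origin firing, with 56 and 53 fragments in KO against 16 and 27 in WT and a log2 difference of 0.91 (SE 0.46). Dnmt1, the maintenance DNA methyltransferase, followed at 0.48 (SE 0.283), with 11.8 and 7.91 FPKM in KO replicates 1 and 2, against 6.42 and 7.56 FPKM in WT. Pole2, a subunit of the leading-strand polymerase, had 7 and 0 fragments in KO against 8 and 13 in WT. Orc2 stood at 10.6 and 13 FPKM in KO against 7.77 and 8.72 FPKM in WT, and Hells, a chromatin remodeller, at 0.934 and 6.42 FPKM in KO against 1.07 and 1.17 FPKM in WT. All 6 of these genes had an edgeR adjusted p of 0.999.

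Genes of the later cell cycle phases were also low. Mki67 was at 0.589 and 0.797 FPKM in KO replicates 1 and 2, against 0.699 and 1.19 FPKM in WT, and Top2a at 0.72 and 1.42 FPKM in KO against 1.29 and 1.2 FPKM in WT. The 18 genes of G2 and mitosis summed to 57.4 and 64.1 CPM in the KO-labelled libraries and 68.2 and 74.3 CPM in WT. This sum was lower in both KO-labelled libraries, and its order was not tested. Of the 10 genes tested, 3 had a log2 difference above 0 and 7 below, with a median of -0.40 and 0 called. The summed AT2 markers were lower in the same libraries, though single markers went both ways, and the part of this in the G2 and mitosis sum was not tested. The sum of the 40 replication genes did not share that order.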

How the data were processed

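RNA-seq of 4 libraries, 2 KO-labelled and 2 WT by title, was analysed from the table the authors deposited. Tools listed, without their roles, per the submitters' processing notes were cutadapt (1.9.3), HISAT2 (version 2.0.4) and Cufflinks with Cuffdiff (2.2.1), on mm10. The sources used here state neither parameters nor an annotation release. Libraries were ribosomal RNA-depleted and stranded, per the labels' protocols. Deposited FPKM values are the authors', per the file headers. The deposited counts are estimated counts scaled per library: values step by a constant, and dividing by it made 90.9% to 92.5% of them whole within 0.05. Rounded, these are the fragments used, and CPM is computed from their total.

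The main test was edgeR 4.0.16 (R 4.3.3; TMM, filterByExpr, quasi-likelihood, no covariate) over all genes. It was preferred to FPKM because the list is low. Standard errors are approximate, the log2 difference divided by the root of F. DESeq2 1.42.0 and limma 3.58.1 (trend, genes at 1 FPKM in 2 libraries) were alternatives, as were other scalings, filters, a replicate block and leaving out each library. The edgeR procedure was tested on simulated data. Whether each library is its own animal is not stated in the labels, so the p-values reflect library-to-library spread, possibly technical. Replicate numbers did not pair the libraries by the labels. All 40 list genes are named; of other replication genes, the 6 with the smallest p; lists and rules were chosen with earlier results of these data known. Coordinates and shared 100-base stretches are from GENCODE M21 (GRCm38), where 96.8% of identifiers matched. Promoter windows are from RefSeq (GRCm38.p6). Protein sequences of the MCM genes were not analysed here.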

Additional observations from a re-analysis of the deposited data

How the results depend on the processing

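Most values depend little on scaling and much on single libraries. All 33 tested replication genes kept their sign, and none passed, with DESeq2 size factors in edgeR, with library totals alone, with the counts as deposited, with no filter, with DESeq2 and with the replicate block. Of the 27 that limma could also fit on log2(FPKM + 1) and log2(FPKM + 0.1), 3 reversed: Pola1 to 0.32 and 0.45, Pold1 to 0.13 and 0.13, and Tyms to -0.19 and -0.22. Over all genes, 5 were called with no filter, 7 with DESeq2 and 2 with the replicate block, against 0 in the main test, with none from the list. That block pairs libraries by number, and the deviations of same-numbered libraries correlated at 0.039. Because the KO-labelled libraries differ widely from each other, this low value does not show whether same-numbered libraries were handled together. Leaving out 1 library in turn gave a list median between -0.17 and 0.17, and a summed log2 ratio between -0.090 and 0.11. The 1390 arose without KO replicate 2, where Mcm10 was the list gene called, and 116 were called without KO replicate 1; the lone library then takes its spread from the opposite group. The cause was not tested. Of the 33, 15 kept their sign whichever library was left out, among them Mcm3 (-3.68 to -2.02), Orc6 (-0.55 to -0.33), Rfc3 (-1.72 to -0.65) and Cdt1 (-1.92 to -0.52). Genes whose groups do not overlap in CPM keep their sign almost by definition, so this adds no support for them. These were 5 of the 33 above WT and 6 below, the genes just named among the latter. The share of all tested genes that kept their sign was not computed. The other 18 reversed in at least 1 case: Cdc6 (-1.13 to 0.53), Gins4 (-0.078 to 0.44), Lig1 (-1.09 to 0.28), Mcm10 (-0.37 to 1.03), Mcm4 (-0.26 to 0.33), Mcm5 (-2.22 to 0.18), Mcm7 (-0.10 to 0.39), Pcna (-0.074 to 0.17), Pola1 (-0.23 to 0.16), Pola2 (-0.021 to 0.49), Prim1 (-0.46 to 0.19), Rfc4 (-0.19 to 0.44), Rpa1 (-0.23 to 0.060), Rpa3 (-0.033 to 1.07), Rrm1 (-0.24 to 0.35), Rrm2 (-0.60 to 1.75), Tk1 (-0.85 to 0.44) and Tyms (-0.18 to 0.52). Depth limits the 7 untested genes most, at 1 to 38 fragments over all libraries.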
